A study of Mus musculus with 2 samples.

Results

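Eicosanoid and phospholipase genes were compared between cystic and dense organoids grown from mouse pituitary, by RNA-seq of 1 library each. The genes are the 52 of 20647 in the deposited table whose names belong to the phospholipase A2, phospholipase B1, phospholipase D, lipoxygenase, prostaglandin, leukotriene and epoxide hydrolase families. Alox12b is left out of the set. Organoids are small cultured structures that cells of a tissue build and that keep some features of that tissue. Cystic organoids were taken at passage 2 and derived from a GHCre/iDTR male mouse aged 10 weeks. Dense organoids were taken at passage 4 and derived from a -/iDTR male mouse of that age. Both mice thus carried iDTR, and both cultures were kept in PitOM medium; the labels name no treatment of the cultures. Organoid type, passage and mouse differ together and cannot be told apart, and there are no replicates.

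Eicosanoids are signalling lipids made from arachidonic acid. Phospholipase A2 enzymes cut the fatty acid from membrane phospholipids, cyclooxygenases then turn it into prostanoids, and lipoxygenases turn it into hydroxy fatty acids and leukotrienes. Prostanoids and leukotrienes act on G protein-coupled receptors and are removed by dehydrogenases and reductases, while epoxide hydrolases open the epoxides of fatty acids and foreign compounds. In epithelia prostaglandin E2 takes part in growth and repair, and in stratified epithelium epoxy and hydroxy lipids take part in forming the barrier.

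The cystic library held 17247431 recovered reads and the dense library 19258313. Values are normalized counts, which are reads divided by 1 size factor per library, so that 1 read is worth 1.05 normalized counts in the cystic library and 0.956 in the dense one. Intervals are 95% counting intervals, exact Poisson for a level and Clopper-Pearson for a fold. A gene without a read was allowed up to 3 reads, 3.14 normalized counts in the cystic library and 2.87 in the dense one. A fold against it, given as at least, divides the other library's value by this floor. It is a lower bound for that value as read and leaves out the counting error of that value. Intervals and floors cover counting error only, since amplified reads are not independent molecules. With 1 library per group no test between conditions was possible. Markers of epithelium and of pituitary stem cells were present in both libraries, with the exception of Lhx3 in the dense one. Epcam, an epithelial surface gene, had 28114 normalized counts in the cystic library and 10446 in the dense one. Sox2, the stem cell factor of the gland, had 2790 normalized counts (cystic) and 3885 (dense), whereas Lhx3, a pituitary commitment factor, had 172 normalized counts in cystic organoids but no read in dense ones.

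Most of the larger differences among the members were lower values in cystic organoids. A mean of both libraries of at least 50 normalized counts was reached by 27 of the 52 members. A member was called when its values, with 1 added to each, differed at least 4-fold (2 on the log2 scale). In all, 3 members were called higher in cystic organoids, which is 11.1% of the 27, where 7.86% of all 11279 genes past the filter were. The other direction held 10 members, or 37.0%, called lower in cystic organoids, where 7.65% of all genes were. With the whole counting interval beyond 4-fold, a rule chosen after seeing the data, 3 members were higher and 9 lower in cystic organoids, where 6.96% of all genes were higher and 6.92% lower. The median log2 ratio was -0.77 over these members and -0.03 over all genes past the filter. Of the 27, 6 passed the filter only through the dense library and 0 only through the cystic one, so the filter set the direction of those 6. They were Ptges, Pla2g4e, Pla2g4f, Alox12e, Ltb4r1 and Ltb4r2, and all 6 were among the 10 called lower. The share of 37.0% therefore rests in large part on them. The rest of the 10, Ptgs1, Ptgr1, Ephx3 and Pld1, reached 50 normalized counts in both libraries. The members took 0.375% of all cystic and 0.193% of all dense normalized counts. That order turned on Ephx1 alone, since without it the sums were 19342 in the cystic library and 28734 in the dense one. In bulk RNA, fewer cells of a type and less RNA per cell cannot be told apart.

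**Figure D1:**
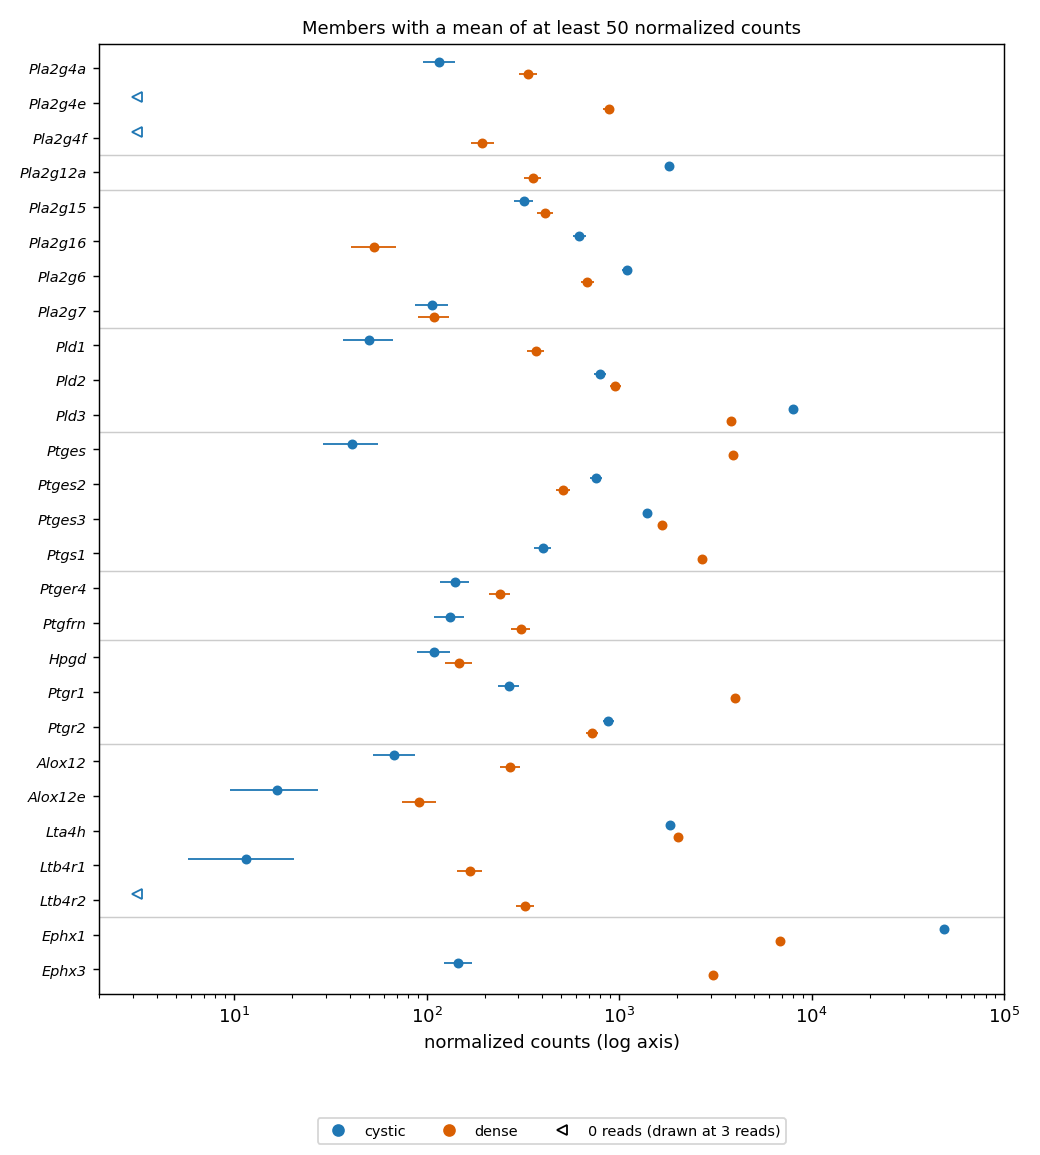
Normalized counts (log axis) of the 27 members with a mean of at least 50, in cystic (blue) and dense (orange) organoids. Points are single libraries, lines are 95% Poisson counting intervals, and open triangles mark genes without a read, drawn at 3 reads. Grey lines part the functional groups, and Ephx1 at 48397 in cystic organoids is the highest value.

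Ptgs1 was the more abundant cyclooxygenase gene in both libraries, and it was lower in cystic organoids. Ptgs1 (ENSMUSG00000047250) encodes cyclooxygenase-1, the constitutive enzyme that makes the prostanoid precursor. It had 403 normalized counts (interval 364 to 445) in cystic organoids, against 2693 (2594 to 2794) in dense organoids. Ptgs1 was thus 6.69-fold lower in cystic organoids (6.01 to 7.46). Ptgs2, the inducible cyclooxygenase, stayed below the filter with 50.2 normalized counts in the cystic library and 29.6 in the dense one, from 48 (cystic) and 31 (dense) reads. It was 1.69-fold higher in cystic organoids, with an interval from 1.06 to 2.75. Per kilobase of exon, which allows genes to be compared, Ptgs1 stood at 104 and Ptgs2 at 10.96 normalized counts in cystic organoids. In dense organoids the same measure was 693 for Ptgs1 and 6.47 for Ptgs2. Ptgs2 therefore made up 9.56% of the cyclooxygenase pair in the cystic library and 0.925% in the dense one. Ptgs2os, a transcript from the strand opposite Ptgs2, had no read in the cystic library and 2 reads in the dense one.

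The widest difference among members with reads in both libraries was in Ptges. Ptges (ENSMUSG00000050737) encodes the microsomal prostaglandin E synthase, the inducible enzyme that works after cyclooxygenase. It had 40.8 normalized counts (29.0 to 55.8) in cystic organoids, against 3905 (3786 to 4026) in dense organoids. Ptges was 95.7-fold lower in cystic organoids (69.9 to 135). Ptges passed the filter only through the dense library, so the filter set its direction. The other genes named for this step did not follow Ptges. Ptges2, a membrane-bound synthase, had 757 normalized counts in the cystic library and 510 in the dense one, 1.48-fold higher in cystic (1.33 to 1.66). Ptges3, which encodes the chaperone partner p23 and is also described as a cytosolic synthase, had 1398 normalized counts (cystic) and 1675 (dense). Its reads may be shared with a processed pseudogene, Ptges3-ps. Per kilobase, Ptges took 1.31% of the 3 synthases in the cystic library and 53.7% in the dense one. Ptges3 took 79.7% in cystic and 40.8% in dense organoids. Ptges3l, a gene related to Ptges3, had 15.7 normalized counts in the cystic library and 3.82 in the dense one, and 28.7% of its exon length overlaps Gm27029 on the same strand.

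The promoter windows of Ptgs1 and Ptges are shown because these genes of consecutive steps were both lower in cystic organoids. Each runs from 250 bases before to 50 bases after the start that RefSeq gives on GRCm38.p6, at chr2:36230176-36230475 on the + strand and chr2:30903248-30903547 on the - strand, 5′ to 3′. The deposited values do not say which start was used. Neither window held any of the motifs searched on both strands, so none of their letters is in capitals. The motifs were TGANTCA for AP-1, TATAAA for the TATA box, the direct repeat bound by PPAR receptors and the NF-kB consensus, and no matches overlapped in the windows shown. The share of G and C was 50.7% for Ptgs1 and 60.0% for Ptges.
Ptgs1: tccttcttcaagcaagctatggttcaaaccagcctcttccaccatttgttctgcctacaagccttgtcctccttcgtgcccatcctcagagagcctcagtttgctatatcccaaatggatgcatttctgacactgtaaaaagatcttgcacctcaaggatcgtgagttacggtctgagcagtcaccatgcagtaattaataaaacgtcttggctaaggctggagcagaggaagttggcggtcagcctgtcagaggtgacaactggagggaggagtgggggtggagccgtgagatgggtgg
Ptges: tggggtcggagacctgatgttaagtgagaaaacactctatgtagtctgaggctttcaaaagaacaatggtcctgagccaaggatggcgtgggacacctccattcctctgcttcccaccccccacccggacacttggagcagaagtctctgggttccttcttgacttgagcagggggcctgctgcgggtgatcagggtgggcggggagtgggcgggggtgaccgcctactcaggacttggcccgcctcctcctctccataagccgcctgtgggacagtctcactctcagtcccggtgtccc

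Other prostanoid synthases were low. Hpgds, the hematopoietic prostaglandin D synthase, had no cystic read and 84.1 normalized counts (67.5 to 104) in dense organoids, which puts it at least 26.8-fold lower in cystic. Its mean was under 50, so it was not counted among the called members. Ptgds, the brain-type prostaglandin D synthase, had 7.32 (cystic) and 9.56 (dense) normalized counts, with overlapping intervals. Ptgis, the prostacyclin synthase, had 1 read in the cystic library and 0 reads in the dense one.

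Among receptors for prostaglandin E2, Ptger4 was the most abundant in both libraries. Ptger4, which encodes EP4 and raises cyclic AMP, had 140 normalized counts (117 to 166) in the cystic library and 240 (211 to 272) in the dense one. It was 1.71-fold lower in cystic organoids (1.38 to 2.13), under the 4-fold call. The remaining receptors were below the filter and differed in direction. Ptger3, which encodes EP3 and lowers cyclic AMP, had 44.99 normalized counts (32.6 to 60.6) in cystic organoids but no read in dense ones, at least 15.7-fold higher in cystic. Ptger2, which encodes EP2 and raises cyclic AMP, had no read in cystic organoids and 52.6 normalized counts (39.6 to 68.4) in dense ones, at least 16.8-fold lower in cystic. Per kilobase, Ptger3 took 26.1% of the EP receptors in cystic organoids and Ptger2 took 21.7% in dense organoids. Ptger4 took 69.5% in cystic and 77.2% in dense organoids. Ptger1, which encodes EP1, had at most 7 reads in either library. Ptgfrn, named as a negative regulator of the prostaglandin F2 receptor, had 132 in the cystic library and 308 in the dense one, 2.33-fold lower in cystic (1.89 to 2.89).

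Removal of prostaglandins showed one large difference. Ptgr1 (ENSMUSG00000028378) encodes a reductase that inactivates keto-prostaglandins and leukotriene B4. It had 268 normalized counts (236 to 303) in cystic organoids, against 4012 (3891 to 4135) in dense organoids. Ptgr1 was 14.98-fold lower in cystic organoids (13.2 to 17.1). Per kilobase it ranked 10 of the 52 members in the cystic library and 2 in the dense one. Hpgd, the dehydrogenase that starts prostaglandin breakdown, had 109 normalized counts in the cystic library and 147 in the dense one, 1.35-fold lower in cystic (1.05 to 1.75). Ptgr2, a related reductase, had 881 normalized counts (cystic) and 723 (dense). For Ptgr2, 31.98% of the exon length overlaps Gm47484 on the opposite strand, so its value is uncertain.

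**Figure D2:**
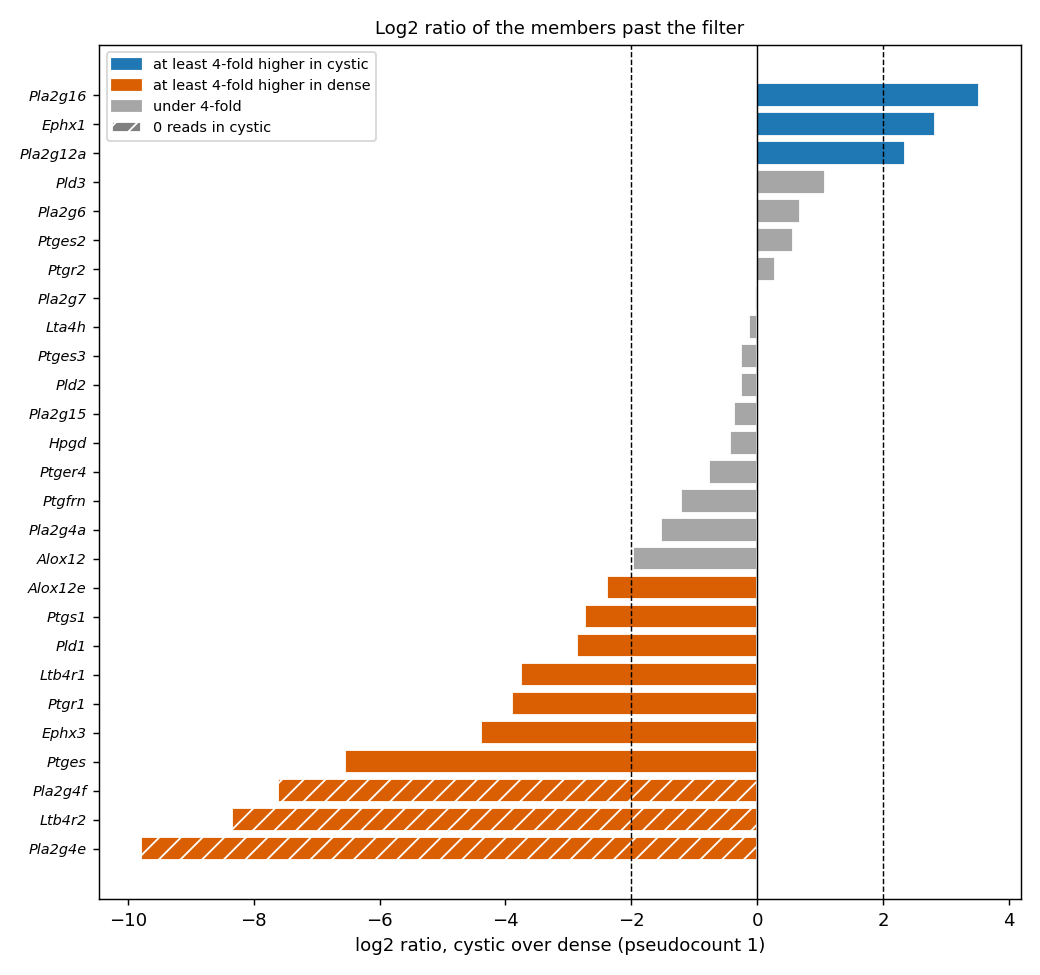
Log2 ratio of cystic over dense organoids, after adding 1 to each value, for the 27 members past the filter. Dashed lines mark a 4-fold difference, and hatched bars mark genes without a read in cystic organoids, whose length depends on the added 1. Pla2g16 has the highest ratio and Pla2g4e the lowest.

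Among cytosolic phospholipase A2 genes, whose enzymes act on membrane phospholipids inside the cell, 3 of 5 passed the filter. Pla2g4e and Pla2g4f passed it only through the dense library, so the filter set their direction, and Pla2g4c, with reads in the cystic library alone, was below it. Pla2g4a (ENSMUSG00000056220), the calcium-dependent enzyme that frees arachidonic acid, had 116 normalized counts (95.5 to 140) in the cystic library and 337 (303 to 375) in the dense one. It was 2.91-fold lower in cystic organoids (2.34 to 3.63), under the 4-fold call. Pla2g4e (ENSMUSG00000050211), which encodes an enzyme described mainly as an N-acyltransferase, had no cystic read and 881 (825 to 940) in dense organoids, at least 281-fold lower in cystic. Pla2g4f (ENSMUSG00000046971) had no cystic read and 195 (169 to 224) in dense ones, at least 62.1-fold lower in cystic. Pla2g4e and Pla2g4f lie close together on chromosome 2, with 1 protein-coding gene between them in the RefSeq annotation of GRCm38.p6. Pla2g4c, a calcium-independent relative, had 8 reads in the cystic library and 0 reads in the dense one. Pla2g4b had 2 (cystic) and 3 (dense) reads, and 66.5% of its exon length overlaps Gm28042 on the same strand. Per kilobase, Pla2g4a took 87.5% of the group in cystic organoids and 21.9% in dense ones, where Pla2g4e took 52.6% and Pla2g4f 25.3%.

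Secreted phospholipase A2 genes were led by Pla2g12a. Pla2g12a (ENSMUSG00000027999), a widely expressed secreted enzyme of low catalytic activity, had 1821 normalized counts (1737 to 1909) in the cystic library and 356 (320 to 394) in the dense one. It was 5.12-fold higher in cystic organoids (4.58 to 5.74). The other 5 secreted members were below the filter. Pla2g5, a secreted enzyme that binds lipid surfaces, had 18.8 (11.2 to 29.8) in cystic organoids but no read in dense ones, at least 6.57-fold higher in cystic. Pla2g3 had 1 read in the cystic library and 11 reads in the dense one, while Pla2g10, Pla2g2c and Pla2g2e had at most 2 reads in either.

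The remaining phospholipases of this type included Pla2g16, which had the highest log2 ratio of the 27 members past the filter. Pla2g16 (ENSMUSG00000060675), an acyltransferase and phospholipase best known from fat tissue, had 622 normalized counts (573 to 675) in the cystic library and 53.5 (40.4 to 69.5) in the dense one. It was 11.6-fold higher in cystic organoids (8.83 to 15.6). Pla2g6, a calcium-independent phospholipase of membrane turnover, had 1101 normalized counts (cystic) and 684 (dense), 1.61-fold higher in cystic (1.46 to 1.77). Pla2g15, the lysosomal phospholipase A2, had 320 in the cystic library and 412 in the dense one. Pla2g7, which encodes the secreted enzyme that breaks down platelet-activating factor, had 107 normalized counts (cystic) and 109 (dense), a 1.02-fold difference with an interval from 0.775 to 1.35. Plb1 had 2 reads in the cystic library and 6 reads in the dense one.

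In the phospholipase D family the largest difference was in Pld1. Pld1 (ENSMUSG00000027695) and Pld2 encode enzymes that make phosphatidic acid from phosphatidylcholine. Pld1 had 50.2 normalized counts (37.0 to 66.6) in the cystic library and 370 (334 to 409) in the dense one, 7.37-fold lower in cystic (5.45 to 10.2). Pld2 had 797 normalized counts (cystic) and 958 (dense), 1.20-fold lower in cystic (1.09 to 1.322). Per kilobase, Pld1 made up 2.95% of this pair in the cystic library and 15.7% in the dense one. Pld3, which encodes a lysosomal nuclease of the same family, had 7975 in the cystic library and 3802 in the dense one, 2.10-fold higher in cystic (2.02 to 2.18). Per kilobase Pld3 was the second member in the cystic library and the third in the dense one. Pld6, a mitochondrial member, had 16 (cystic) and 6 (dense) reads, and Pld4 had 0 (cystic) and 2 (dense).

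**Figure D3:**
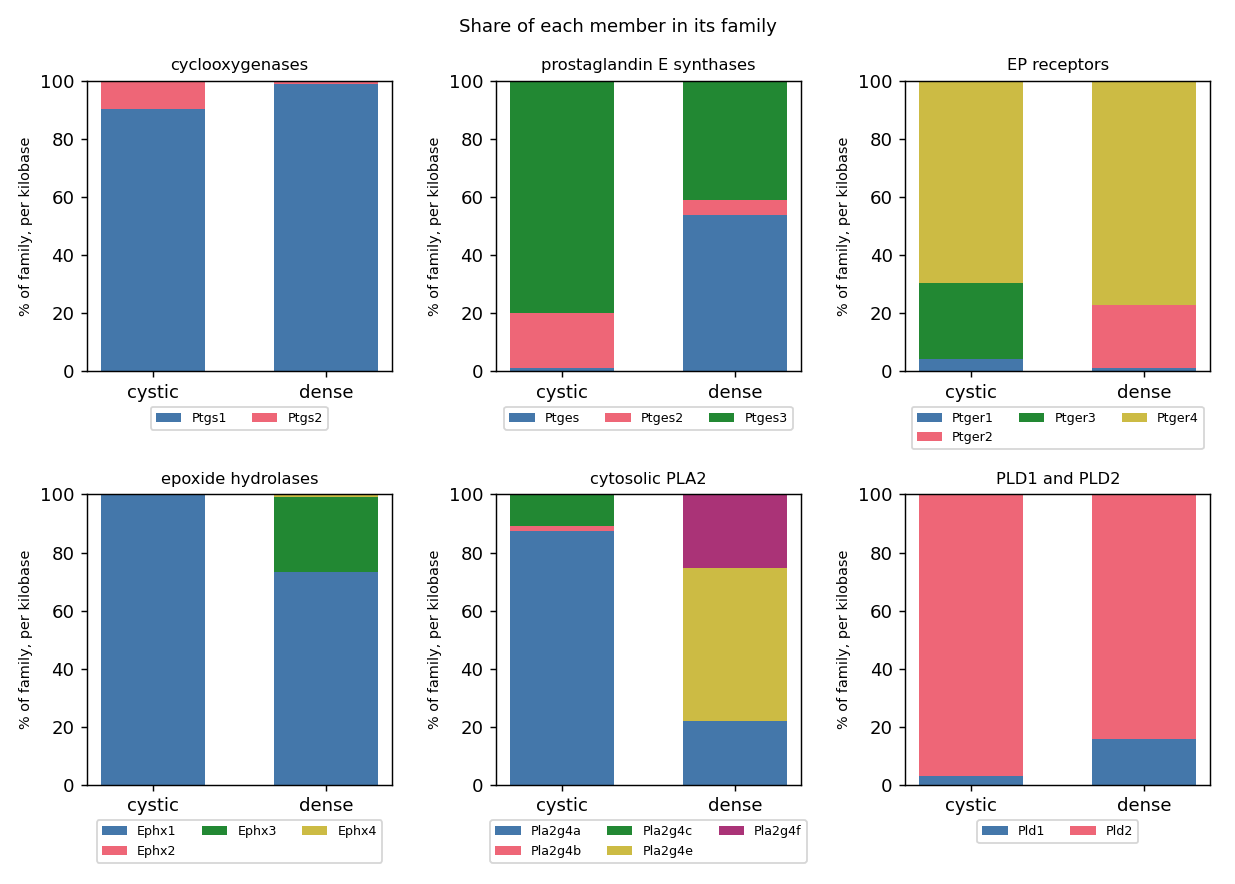
Share of each gene in its family, in percent of the family's normalized counts per kilobase of exon, in cystic (left) and dense (right) organoids. Each bar is 1 library. Ptges is at 1.31% in the cystic library and 53.7% in the dense one, and Pla2g4a at 87.5% (cystic) and 21.9% (dense).

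Lipoxygenase genes were at low to moderate levels, and the larger differences were lower values in cystic organoids. Alox12e (ENSMUSG00000018907), the epidermal lipoxygenase, had 16.7 normalized counts (9.57 to 27.2) in the cystic library and 91.8 (74.3 to 112) in the dense one. It was 5.48-fold lower in cystic organoids, with an interval from 3.21 to 9.97 that reaches below 4-fold. Alox12e passed the filter only through the dense library, so the filter set its direction. Alox12, the platelet-type enzyme, had 68.0 normalized counts (52.5 to 86.7) in cystic organoids, against 271 (240 to 304) in dense organoids. At 3.98-fold lower in cystic (3.03 to 5.29) it missed the call by a small margin. Alox15 had no cystic read and 86.0 (69.2 to 106) in dense ones, at least 27.4-fold lower in cystic, but its mean was under 50. These 3 genes follow each other on chromosome 11 in the RefSeq annotation, and reads could be shared between such related sequences.

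The leukotriene branch had its enzyme Lta4h at similar levels and its receptors far apart. Alox5, which starts leukotriene synthesis, had 20 reads in each library. Its partner Alox5ap had 3 reads in the cystic library and 19 reads in the dense one, and Ltc4s, the cysteinyl leukotriene synthase, had 1 (cystic) and 2 (dense). Lta4h, which makes leukotriene B4 and also cleaves peptides, had 1849 normalized counts (1763 to 1937) in the cystic library and 2016 (1931 to 2104) in the dense one. The receptor gene Ltb4r1 (ENSMUSG00000046908), which binds leukotriene B4 with high affinity, had 11.5 (5.74 to 20.6) in the cystic library and 168 (144 to 195) in the dense one, 14.6-fold lower in cystic (7.97 to 29.8). Ltb4r2 (ENSMUSG00000040432), the low-affinity receptor that also binds a cyclooxygenase product of hydroxy fatty acid type, had no cystic read and 325 (291 to 361) in dense ones. Ltb4r2 was at least 104-fold lower in cystic organoids. Ltb4r1 and Ltb4r2 passed the filter only through the dense library, so the filter set their direction. The receptor genes are neighbours on chromosome 14 with 0 protein-coding genes between them, and their exons do not overlap in GENCODE M21.

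Several genes of this branch are known from leukocytes, so leukocyte markers were read beside them. Of 16 such markers, 10 had a row in the table and 0 passed the filter, with summed levels of 62.8 normalized counts in the cystic library and 26.8 in the dense one. Of the 10, 2 were at 0 in the cystic library and 4 in the dense one. The pan-leukocyte gene Ptprc had 1 read in the cystic library and 0 reads in the dense one, and the myeloid gene Itgam had 0 in the cystic library and 18.2 normalized counts in the dense one. Aif1, a macrophage gene, had 47.1 in cystic organoids but no read in dense ones. Fibroblast and pericyte markers summed to 174 in the cystic library and 14.3 in the dense one, and endothelial markers to 35.6 (cystic) and 27.7 (dense), with 0 markers of either list past the filter.

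**Figure D4:**
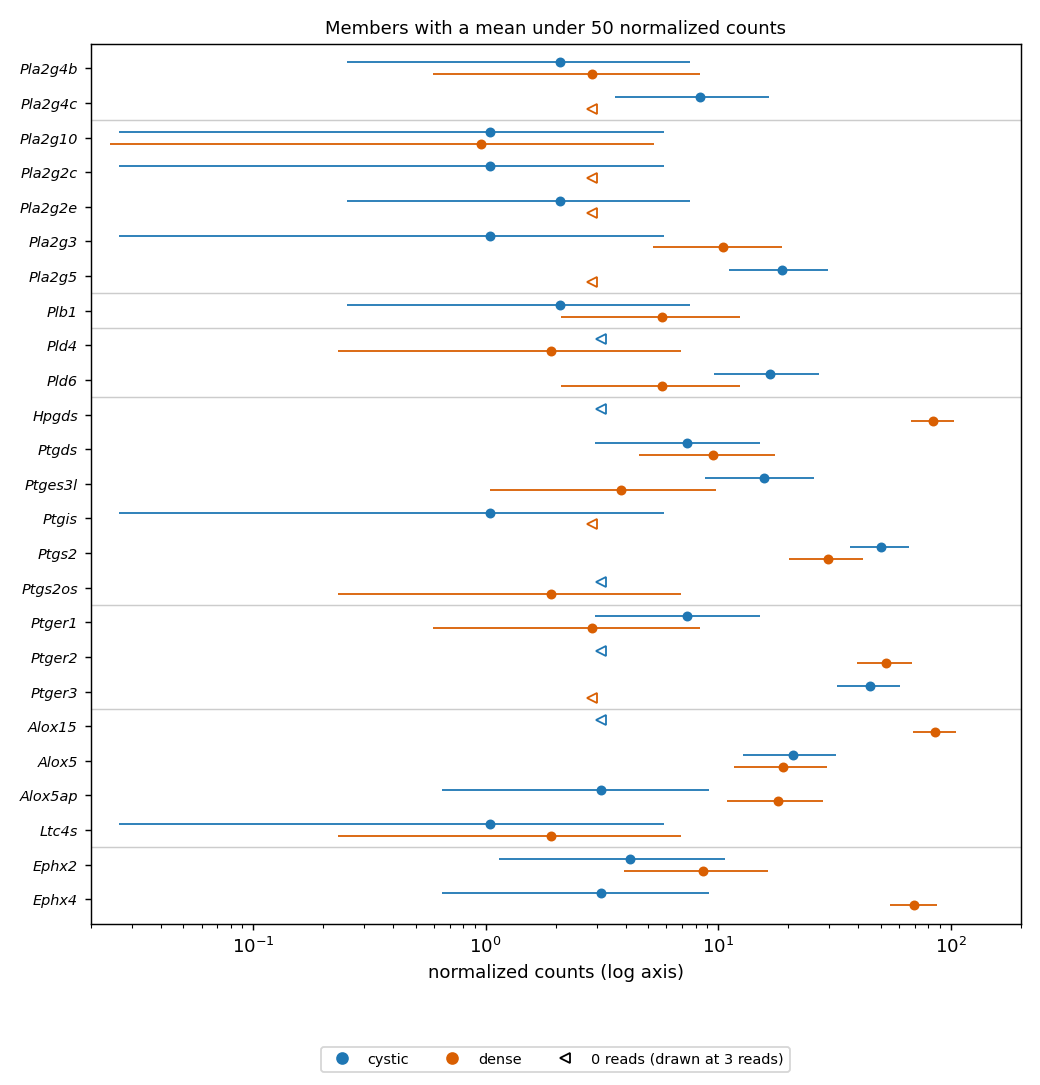
Normalized counts (log axis) of the 25 members with a mean under 50, in cystic (blue) and dense (orange) organoids, with 95% Poisson counting intervals. Open triangles mark genes without a read, drawn at 3 reads. Ptger3 has reads in the cystic library and none in the dense one, and Hpgds, Alox15 and Ptger2 show the reverse.

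Epoxide hydrolase genes differed in opposite directions. Ephx1 (ENSMUSG00000038776), the microsomal enzyme that opens epoxides of foreign compounds and of fatty acids, had 48397 normalized counts (47957 to 48840) in the cystic library and 6822 (6665 to 6982) in the dense one. It was 7.09-fold higher in cystic organoids (6.92 to 7.27). Per kilobase, Ephx1 ranked 13 among all genes with an exon length in the cystic library and 192 in the dense one. Ephx3 (ENSMUSG00000037577), an epoxide hydrolase of skin and other stratified epithelium that acts on fatty acid epoxides, had 146 (123 to 173) in the cystic library and 3077 (2972 to 3185) in the dense one. It was 21.01-fold lower in cystic organoids (17.7 to 25.1). Ephx4, a relative of unsettled substrate, had 3 reads in the cystic library and 73 reads in the dense one, 22.2-fold lower in cystic with a wide interval of 7.31 to 110, and its mean was under 50. Ephx2, the soluble enzyme for epoxides of arachidonic acid, had 4 (cystic) and 9 (dense) reads. Per kilobase, Ephx1 made up 99.8% of the family in the cystic library and 73.3% in the dense one, and Ephx3 made up 0.235% in cystic and 25.8% in dense organoids.

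The promoter windows of Ephx3 and Ephx1 are shown because these epoxide hydrolase genes were called in opposite directions. They were taken as above from RefSeq on GRCm38.p6, chr17:32189421-32189720 and chr1:181017520-181017819, both on the - strand. Capitals mark motif matches. The Ephx3 window holds 1 AP-1 match, TGAGTCA, that begins 16 bases after the start. The Ephx1 window holds 1 TATA box match that begins 214 bases before the start. Of the 52 members, 42 had a window in the table. An AP-1 match was found in 5 of these 42 (11.9%), and in 8.97% of 27025 genes with a window. It was found in 2 of the 9 members called lower in cystic organoids that had a window, Ephx3 and Pld1. The other matches were in 3 of the 17 members below the filter that had a window, Pla2g2e, Plb1 and Ptgds. A TATA box match was found in 3 of the 42 members, Ephx1, Hpgd and Pla2g4a, and in 15.7% of all genes. The PPAR and NF-kB motifs were found in 0 members, and in 0.0481% and 0.174% of all genes. A match describes letters only.
Ephx3: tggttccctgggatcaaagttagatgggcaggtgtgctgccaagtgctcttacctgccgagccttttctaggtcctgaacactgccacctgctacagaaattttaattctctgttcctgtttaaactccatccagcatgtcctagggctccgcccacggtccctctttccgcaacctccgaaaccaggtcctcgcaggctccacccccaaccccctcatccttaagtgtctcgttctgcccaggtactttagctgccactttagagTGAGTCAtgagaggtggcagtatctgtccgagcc
Ephx1: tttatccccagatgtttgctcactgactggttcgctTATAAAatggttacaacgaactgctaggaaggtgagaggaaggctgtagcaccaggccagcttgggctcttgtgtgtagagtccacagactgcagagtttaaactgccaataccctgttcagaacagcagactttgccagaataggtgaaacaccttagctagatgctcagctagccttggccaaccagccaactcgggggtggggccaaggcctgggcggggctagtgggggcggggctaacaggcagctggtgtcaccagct

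**Figure D5:**
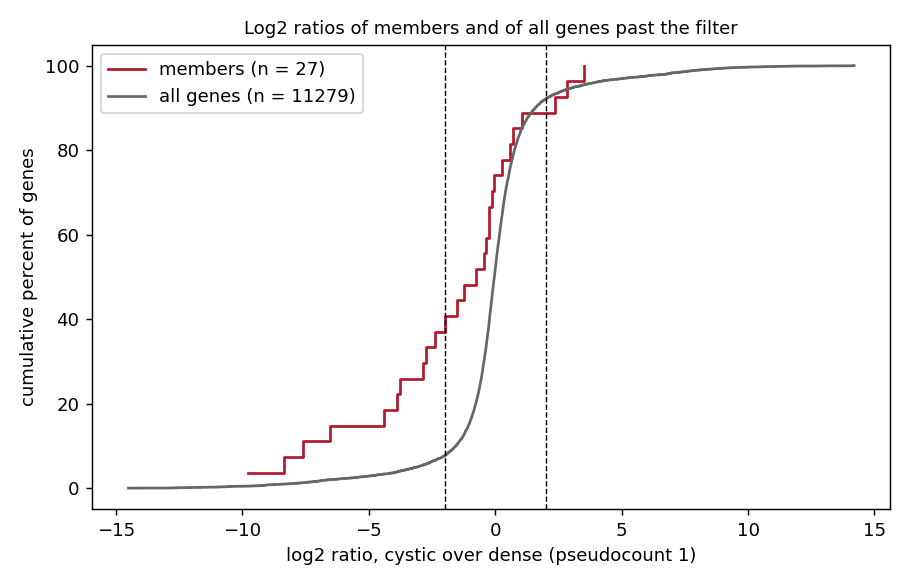
Cumulative percent of genes against the log2 ratio of cystic over dense organoids, for the 27 members and for all 11279 genes past the filter. Dashed lines mark a 4-fold difference in either direction. At the left dashed line the members' line lies above that of all genes, with 37.0% of members and 7.65% of all genes at least 4-fold lower in cystic organoids. Of the members called lower, 6 passed the filter only through the dense library, so the filter set their direction.

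Basal epithelial markers moved with the members that were lower in cystic organoids. Krt5, Krt14 and Trp63 had 16.7, 20.9 and 60.7 normalized counts in cystic organoids and 139723, 175149 and 16344 in dense organoids. The simple epithelial keratin genes Krt8 and Krt18 had 18383 and 34692 in the cystic library and 79.3 and 885 in the dense one. Of the 12 stem cell and epithelial markers, all past the filter, 3 were called higher and 4 lower in cystic organoids. Of all genes past the filter, 7.86% were called higher and 7.65% lower. Krt5 and Krt14 passed the filter only through the dense library and Lhx3 only through the cystic one, so the filter set their direction. The sums over the 12 markers were 114323 (cystic) and 377294 (dense) normalized counts, and Krt5 and Krt14 made up most of the dense sum. Of 10 pituitary endocrine markers, 6 passed the filter, all called higher in cystic organoids. Of these, Chga, Cga and Chgb passed it only through the cystic library, so the filter set their direction. Prl, Gh and Pomc reached the filter level in both libraries. The sums over the 10 were 4322 (cystic) and 774 (dense). Below the filter, Pou1f1 went the other way, with 2 cystic and 36 dense reads, 16.4-fold lower in cystic (4.23 to 141). Fshb, Tshb and Lhb, also below it, had 15, 21 and 11 cystic reads and 9, 5 and 2 dense reads. The part of any of these cell types in the differences was not tested.

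Other eicosanoid genes, outside the member set, differed in both directions. Of 52 genes in this list, 40 had a row in the table and 29 passed the filter, of which 4 (13.8%) were called higher and 6 (20.7%) lower in cystic organoids, where 7.86% of all genes were higher and 7.65% lower (median log2 ratio 0.28). Slco2a1, the prostaglandin uptake transporter, had 60.7 normalized counts in the cystic library and 2165 in the dense one, 35.7-fold lower in cystic (27.5 to 47.1). Aloxe3, a lipoxygenase of skin barrier lipids, had 3.14 (cystic) and 114 (dense) (36.2-fold lower in cystic, 12.1 to 178). Cyp4f39, a fatty acid hydroxylase gene, had 55.4 (cystic) and 7885 (dense), and was 142-fold lower in cystic organoids (109 to 190). Akr1b8, an aldo-keto reductase gene, was 12.96-fold lower in cystic organoids (9.05 to 19.2). In the other direction, Cysltr1, a cysteinyl leukotriene receptor gene, had 187 normalized counts in cystic organoids but no read in dense ones, at least 65.3-fold higher in cystic. Faah, which degrades fatty acid amides, had 809 (cystic) and 6.69 (dense) (121-fold higher in cystic, 58.4 to 302). The carbonyl reductase gene Cbr2 was 17.03-fold higher (16.1 to 18.1) and Mgst1, a microsomal glutathione transferase gene, 9.84-fold higher (9.22 to 10.5) in cystic organoids. Of the genes named here, Aloxe3 and Akr1b8 passed the filter only through the dense library, and Cysltr1 and Faah only through the cystic one. The filter thus set their direction, and both shares rest in part on them. Gsta4 and Anxa1 were the most abundant. Gsta4, a glutathione transferase gene, had 8632 in the cystic library and 44721 in the dense one, and Anxa1, the phospholipid-binding annexin, had 61915 (cystic) and 147129 (dense).

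Genes of phosphatidic acid and lysophospholipids, the lipids that phospholipase D and A2 feed, were called in shares near those of all genes. Of 52 genes in this list, 46 had a row in the table and 42 passed the filter, with 4 (9.52%) called higher and 4 (9.52%) lower in cystic organoids, where 7.86% of all genes were higher and 7.65% lower (median log2 ratio 0.02). Dgka, a diacylglycerol kinase gene whose enzyme makes phosphatidic acid, had 1179 (cystic) and 13951 (dense) normalized counts, 11.8-fold lower in cystic organoids (11.1 to 12.6). Lpin2 was 6.67-fold lower (6.23 to 7.15) and its relative Lpin1 6.03-fold higher (5.32 to 6.87) in cystic organoids, both phosphatidic acid phosphatase genes. Lpar5, a receptor gene for lysophosphatidic acid, had no cystic read and 554 in dense ones, at least 177-fold lower in cystic. Liph, whose enzyme makes lysophosphatidic acid in skin and hair follicles, had 12.6 (cystic) and 201 (dense) (16.0-fold lower in cystic, 8.96 to 31.4). Enpp2, which encodes autotaxin, the secreted enzyme that makes this lipid, had 192 (cystic) and 17.2 (dense) (11.2-fold higher in cystic, 6.88 to 19.3). Pnpla2, a triglyceride lipase gene, was 11.4-fold higher (10.3 to 12.7) and Gpcpd1, a glycerophosphocholine phosphodiesterase gene, 4.79-fold higher (4.21 to 5.47) in cystic organoids. Lpar5 and Liph passed the filter only through the dense library and Enpp2 only through the cystic one, so the filter set their direction.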

How the data were processed

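Per the labels' protocols, RNA of 1 cystic and 1 dense organoid culture underwent Smart-seq v4 amplification, and NEBNext Ultra DNA reagents were used for sequencing libraries. The authors deposited 1 table of normalized read signal per gene. TopHat, DESeq 1.32.0 and mm9 are named in the submitters' processing notes, with no role. Not given in the sources used here are the read counter, the strand setting and the annotation. Without a strand setting, reads of overlapping genes cannot be told apart. All values (100%, within 0.001 read) were whole multiples of 1 read per library, so reads were recovered. The 2 ERCC spike-in rows were left out.

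Ratios were log2 of cystic over dense with a pseudocount of 1, over genes with a mean of at least 50, called at 4-fold. Exon lengths and overlaps came from GENCODE M21 (GRCm38), which held all 52 members and 99.7% of the table's identifiers; its build is not the authors', so no gene coordinates from it are printed. Python 3.11.15, scipy 1.17.1 and edgeR 4.0.16 (scaling only) were used, and the ratio rule was checked on simulated counts. The members, lists and settings were chosen with earlier results of these data known, and the 4 promoters printed were chosen after their genes' values were seen. Named genes are all members, markers, and, of each list's genes past the filter, the 4 most extreme ratios in each direction and the 2 highest means. With 1 library per group no count model was fitted.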

Additional observations from a re-analysis of the deposited data

How the results depend on the processing

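The call of Alox12e was lost with a pseudocount of 10, and those of Alox12e and Ltb4r1 with 50. Scaling by total reads, upper quartile or TMM left the counts of called members at 3 higher and 10 lower in cystic organoids, and moves all genes nearly alike. Members called lower in cystic organoids were 6 of 19 (31.6%) with a mean of at least 200 and 16 of 52 (30.8%) with no filter, where 6.55% and 9.39% of all genes were. Those called higher were 6 of 52 (11.5%) with no filter, where 13.0% of all genes were, and 1 of 27 (3.7%) at an 8-fold call, where 5.32% were. The median log2 ratio of the members was -0.61 with a pseudocount of 50, -0.99 with a mean of at least 10, -0.26 with a mean of at least 200 and -0.40 with no filter. Over the 4 pathway lists together, 13 of 98 genes were called higher and 17 lower in cystic organoids, where 7.86% and 7.65% of all genes were. At a 2-fold call these were 27 and 31 of 98, where 15.7% of all genes were higher and 15.6% lower. Lower calls were 11 of 81 with a mean of at least 200 and 11 of 98 at an 8-fold call. Of all genes, 6.55% and 5.18% were lower under these settings. Some genes of the lists passed the filter only through the library where they were high. Other filters and calls change the counts by their own construction. No paired analysis was possible because each group has 1 library. Depth limits the 25 members under the filter, of which 13 had under 10 normalized counts in both libraries.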

Other observations

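Phospholipase C genes, whose enzymes cut phosphoinositides into second messengers, differed in both directions. Of 18 in the list, 14 had a row in the table and 11 passed the filter, of which 4 (36.4%) were called higher and 3 (27.3%) lower in cystic organoids, where 7.86% of all genes were higher and 7.65% lower (median log2 ratio -0.61). Plce1 had 834 and Plch1 518 normalized counts in cystic organoids but no read in dense ones, at least 291-fold and 181-fold higher in cystic. Plcd4 had 341 in cystic organoids, against a single dense read, and Plcb4 was 52.0-fold higher in cystic organoids (40.9 to 67.2). Plch2 had 53.4 in the cystic library and 3444 in the dense one, 64.5-fold lower in cystic (49.0 to 86.9). Plcd1 was 7.66-fold lower (6.78 to 8.69) and Plcxd2 7.31-fold lower (5.08 to 10.8) in cystic organoids. Plce1, Plch1 and Plcd4 passed the filter only through the cystic library and Plcxd2 only through the dense one, so the filter set their direction. The share of 36.4% therefore rests in large part on Plce1, Plch1 and Plcd4.

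Among 16 genes past the filter of the list of regulators known to act on cyclooxygenase and phospholipase genes, 1 (6.25%) was called higher and 4 (25.0%) lower in cystic organoids, where 7.86% of all genes were higher and 7.65% lower. Tnf, an inflammatory cytokine gene, had 373 normalized counts in the cystic library and 42.1 in the dense one, 8.88-fold higher in cystic (6.48 to 12.4). The EGF receptor ligand genes Hbegf and Areg were 9.42-fold (8.74 to 10.2) and 5.09-fold (3.85 to 6.84) lower in cystic organoids. Ppard, a lipid-activated nuclear receptor gene, had 19.9 in the cystic library and 183 in the dense one, 9.18-fold lower in cystic (5.72 to 15.6). Il1a had a single read in cystic organoids and 491 normalized counts in dense ones. Il1a and Ppard passed the filter only through the dense library and Tnf only through the cystic one, so the filter set their direction. The shares of 6.25% and 25.0% therefore rest in large part on these genes. The list median was -0.59.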
